A study of Mus musculus with 9 samples.

Results

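The genes described here are the subunits of the transcription factor NF-kappaB and the proteins that hold it in check. They were selected by name, from the gene symbol of each probe set in the platform annotation. A probe set is a group of probes on the array that gives 1 value. Every probe set was taken whose symbol was Nfkb1, Nfkb2, Rel, Rela, Relb, Nfkbia, Nfkbib, Nfkbie, Tnfaip3 or Birc3. This gave 18 probe sets for 9 of the 10 symbols, among 45101 probe sets and 18194 single gene symbols on the array. Nfkb1 was not analysed here. Nfkbia had 5 probe sets, Nfkb2, Nfkbib, Nfkbie, Tnfaip3 and Birc3 had 2 each, and Rel, Rela and Relb had 1 each. All 18 passed the filter on low values, at a mean intensity of 108 over the 9 arrays, and the dimmest were one Tnfaip3 probe set at 113.4 and that of Relb at 125.6.

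The arrays measured total RNA of pre-B cells of the mouse, a stage of B cell development at which the immunoglobulin light-chain genes are rearranged. All 9 samples were labelled as null for the genes of the transcription factors IRF4 and IRF8. In 3 of them IRF4 had been reintroduced and the cells grew in high IL-7 (+IRF4), 3 grew in low IL-7, and 3 grew in high IL-7. IL-7 is the cytokine that keeps B cell precursors alive and dividing, and the labels give its amounts as 5 and 0.25 ng but disagree on the volume. The labels do not say how IRF4 was reintroduced and name no group handled in that way without it, so the handling and IRF4 itself cannot be told apart. Whether the 3 arrays of each group stand for different cultures or mice is likewise not in the labels, and p-values here reflect only the array-to-array spread, which could be technical.

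NF-kappaB is a family of dimers built from the products of Rela, Rel, Relb, Nfkb1 and Nfkb2, and it was first found as a protein of B cells that binds the enhancer of the kappa light-chain gene. In resting cells IkB proteins hold the dimers in the cytoplasm; a signal makes the IKK kinase phosphorylate IkB, which is then degraded, and the freed dimers enter the nucleus. Nfkbia, Nfkbie, Tnfaip3 and Birc3 are themselves well-known NF-kappaB target genes, so that the pathway makes its own brakes.

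The stretch of 250 bases before the annotated start of transcription is shown for the 5 genes whose brightest probe set changed most in low IL-7, read from RefSeq's GRCm38.p6 assembly. Each is written 5′ to 3′ on the gene's own strand. Capitals mark matches to the NF-kappaB consensus of 10 bases, searched on both strands.
Nfkbia, chr12:55492648-55492897, minus strand: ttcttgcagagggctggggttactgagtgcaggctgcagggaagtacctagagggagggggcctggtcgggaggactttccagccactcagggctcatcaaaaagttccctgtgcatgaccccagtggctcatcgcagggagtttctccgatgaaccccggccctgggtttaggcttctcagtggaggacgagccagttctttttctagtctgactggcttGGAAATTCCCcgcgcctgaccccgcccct
Tnfaip3, chr10:19015411-19015660, minus strand: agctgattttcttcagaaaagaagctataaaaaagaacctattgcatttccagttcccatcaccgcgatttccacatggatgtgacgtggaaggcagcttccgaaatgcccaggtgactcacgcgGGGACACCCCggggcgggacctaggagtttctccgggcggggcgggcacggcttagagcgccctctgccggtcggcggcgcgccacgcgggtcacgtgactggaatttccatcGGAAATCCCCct
Nfkbie, chr17:45555450-45555699, plus strand: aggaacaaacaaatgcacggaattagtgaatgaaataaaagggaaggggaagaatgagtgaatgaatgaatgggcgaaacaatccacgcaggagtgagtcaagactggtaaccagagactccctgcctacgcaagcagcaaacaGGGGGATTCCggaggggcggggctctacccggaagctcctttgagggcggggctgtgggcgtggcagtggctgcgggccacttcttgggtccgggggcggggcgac
Birc3, chr9:7873171-7873420, minus strand: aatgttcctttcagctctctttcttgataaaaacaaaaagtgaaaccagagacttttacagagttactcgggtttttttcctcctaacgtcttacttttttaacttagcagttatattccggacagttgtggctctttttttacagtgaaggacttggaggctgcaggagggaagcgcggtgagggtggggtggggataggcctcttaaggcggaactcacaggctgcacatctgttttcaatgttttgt
Nfkbib, chr7:28766645-28766894, minus strand: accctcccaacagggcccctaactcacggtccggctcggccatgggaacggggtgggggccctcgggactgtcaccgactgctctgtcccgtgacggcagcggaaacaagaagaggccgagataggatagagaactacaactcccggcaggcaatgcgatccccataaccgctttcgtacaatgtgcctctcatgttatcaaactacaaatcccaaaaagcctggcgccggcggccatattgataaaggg
The Nfkbia match, GGAAATTCCC, begins 29 bases before the start. That of Tnfaip3 nearest to its start, GGAAATCCCC, begins 12 bases before it, and a further one, GGGACACCCC, lies 125 bases before it. Tnfaip3 has another annotated start, whose window (chr10:19011964-19012213) is not shown and holds no match. The Nfkbie match, GGGGGATTCC, begins 106 bases before the start. The windows of Birc3 and of Nfkbib, the gene that fell, hold no match, which says only that these letters are not in this window. Promoters were at hand for 8 of the 9 genes, and 5 of these 8, the others being Nfkb2 and Rel, had a match at 1 or more of their start sites, against 4.46% of 27025 genes searched in the same way. Matches are given as a description of the sequence and not as binding sites.

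Changes below are differences of group means of log2(intensity + 16), with n = 3 arrays per group; the added 16 shrinks the changes of dim probe sets. A probe set was called changed when limma's p, adjusted by the Benjamini-Hochberg method over all 27024 probe sets tested, was under 0.05. The table holds no detection calls, so it is not known whether a dim probe set stood above background. Levels of different genes or probe sets are not compared, since probes differ in brightness.

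In low IL-7 against high IL-7, 6 of the 9 genes rose at their brightest probe set (Rel, Rela, Nfkbia, Nfkbie, Tnfaip3 and Birc3) and Nfkbib fell. Of all 12828 genes tested 36.9% were called, 17.6% up and 19.4% down. The median change of the 9 was 0.37, and that of all genes tested 0.02. By probe set, 11 of the 18 rose and 1 fell, on a background of 36.4% called, 18.1% up and 18.3% down. On 14 of the 18 all low IL-7 arrays lay above all high IL-7 arrays, and on 1 below, where this held for 25.7% and 23.5% of all probe sets tested. The 14 include all 5 probe sets of Nfkbia, which stand for 1 gene.

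With IRF4 against high IL-7, Nfkbie and Birc3 rose, 2 of the 9 genes, and none fell by limma's test; of all genes tested 2.85% were called, 1.91% up and 0.935% down. The median change was 0.15, against -0.01 over all genes tested. By probe set 2 of 18 were called, both up, on a background of 2.76%, with 1.58% up and 1.18% down. On 5 of the 18 all +IRF4 arrays lay above all high IL-7 arrays, where 8.63% of all probe sets did, and on none below, where 11.8% did. Both comparisons use the same high IL-7 arrays.

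With IRF4 against low IL-7, 4 of the 9 genes were lower (Rela, Nfkbia, Nfkbie and Tnfaip3) and Nfkbib was higher, on a background of 36.3% of genes called, 17.7% lower and 18.6% higher. By probe set 9 of the 18 were lower and 1 higher, where 37.5% of all probe sets were called, 20.3% lower and 17.2% higher. The +IRF4 arrays lay wholly below those of low IL-7 on 10 of the 18 and wholly above on 2, where 26.6% and 23% of all probe sets did. Among the 10 are again all 5 probe sets of Nfkbia.

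**Figure D1:**
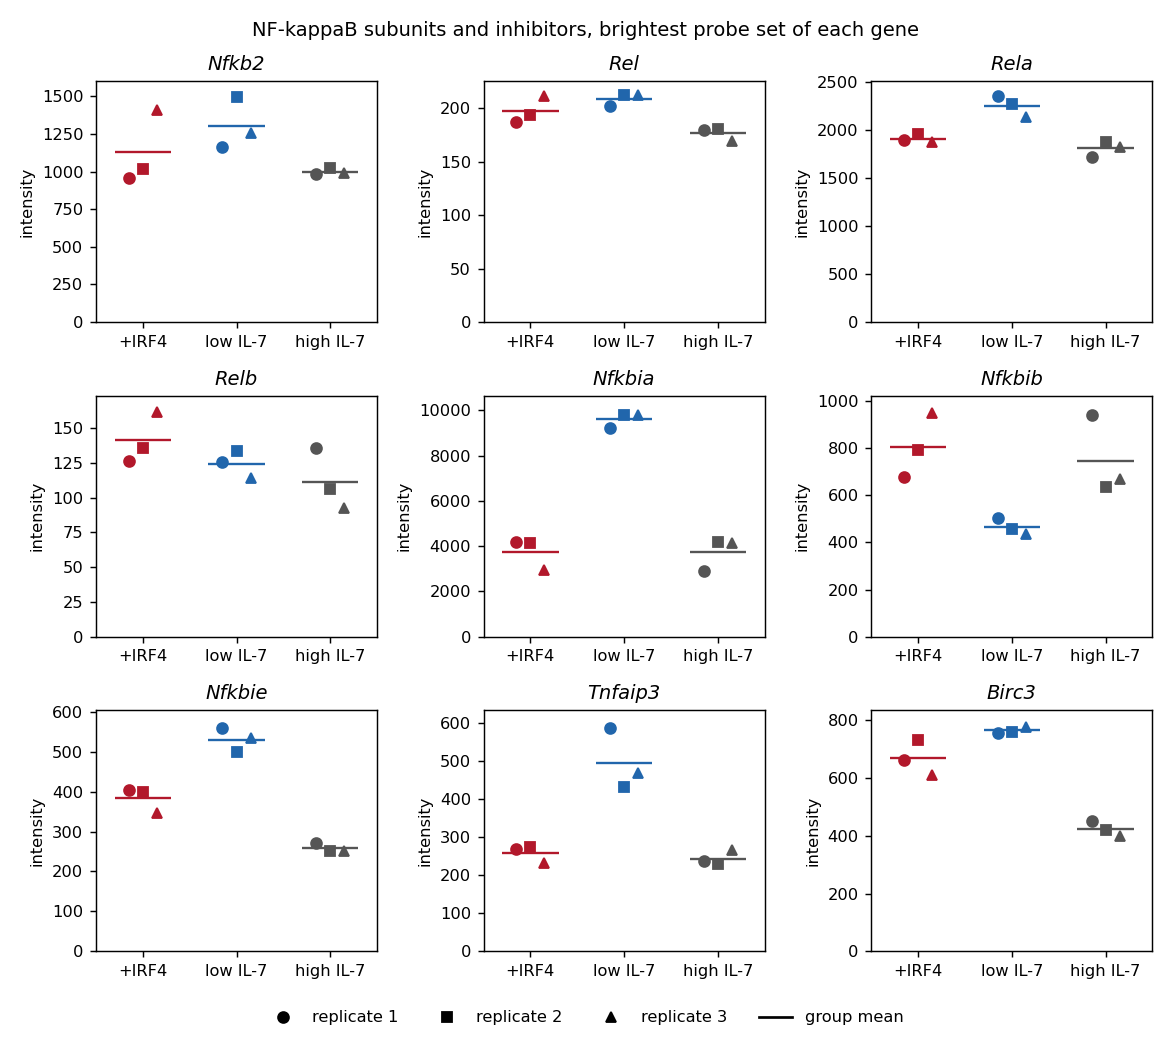
Intensity (linear axis from 0) of the brightest probe set of each of the 9 genes on every array; points are arrays, with shapes for replicate numbers, and lines are group means. For Nfkbia, Nfkbie, Tnfaip3 and Birc3 the 3 low IL-7 arrays lie above the 3 high IL-7 arrays, for Nfkbib they lie below, and only for Nfkbie and Birc3 among these 5 do the +IRF4 arrays lie clear of the high IL-7 arrays.

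The IkB inhibitors are described before the feedback enzymes and the subunits. Nfkbia encodes IkBalpha, the inhibitor that is degraded and remade within each round of NF-kappaB signalling. Its brightest probe set, 1420088_at, read 4185, 4132 and 2953 in the +IRF4 arrays (replicates 1 to 3, here and below), 9221, 9782 and 9796 in low IL-7, and 2899, 4190 and 4125 in high IL-7. The low IL-7 arrays stood far above all others, and the +IRF4 and high IL-7 arrays spanned the same range. Nfkbia rose by 1.38 in low IL-7 against high IL-7 (SE 0.16, 2.60-fold, limma adjusted p = 6.1e-05). With IRF4 the difference from high IL-7 was 0.01 (95% interval -0.33 to 0.35, limma adjusted p = 0.988). The +IRF4 arrays were lower than the low IL-7 arrays by a difference of -1.37 (SE 0.16, limma adjusted p = 7.4e-05). That contrast is also the test of whether the low IL-7 and +IRF4 differences were unequal, since both are set against the same high IL-7 arrays.

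All 5 Nfkbia probe sets showed the same pattern. In low IL-7 they rose by 0.81 to 1.60, and every one had its 3 low IL-7 arrays above the 3 of high IL-7. The largest rise was that of 1438157_s_at, which read 2618, 2630 and 2042 with IRF4, 6036, 6432 and 6641 in low IL-7 and 1832, 2145 and 2335 in high IL-7. The dimmest, 1420089_at, had the smallest rise and read 209, 159 and 171 with IRF4, 302, 290.4 and 389 in low IL-7 and 182, 193 and 163 in high IL-7. None of the 5 passed the test with IRF4 against high IL-7, with differences of 0.00 to 0.21 and intervals reaching up to 0.60.

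On 2 arrays the Nfkbia probe sets departed from their groups in opposite ways. In +IRF4 replicate 3 and high IL-7 replicate 1, 1420088_at and 1438157_s_at were the lowest of their groups, while 1448306_at, at 1244 and 1142, and 1449731_s_at, at 1175 and 1243, were the highest. These same arrays had the lowest signal of the 18S ribosomal RNA control probe sets, at 6.41 and 6.53 on the log2(intensity + 16) scale, against 7.70 to 8.49 on the other 7, and their deviations from the group means over all probe sets tested correlated with r = 0.41. The part of this in the spread of Nfkbia was not tested. When both arrays were left out, a choice made after seeing the data, Nfkbia rose by 1.20 at 1420088_at in low IL-7 (limma adjusted p = 3.46e-06), and its difference with IRF4 was 0.00 (limma adjusted p = 0.999).

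**Figure D2:**
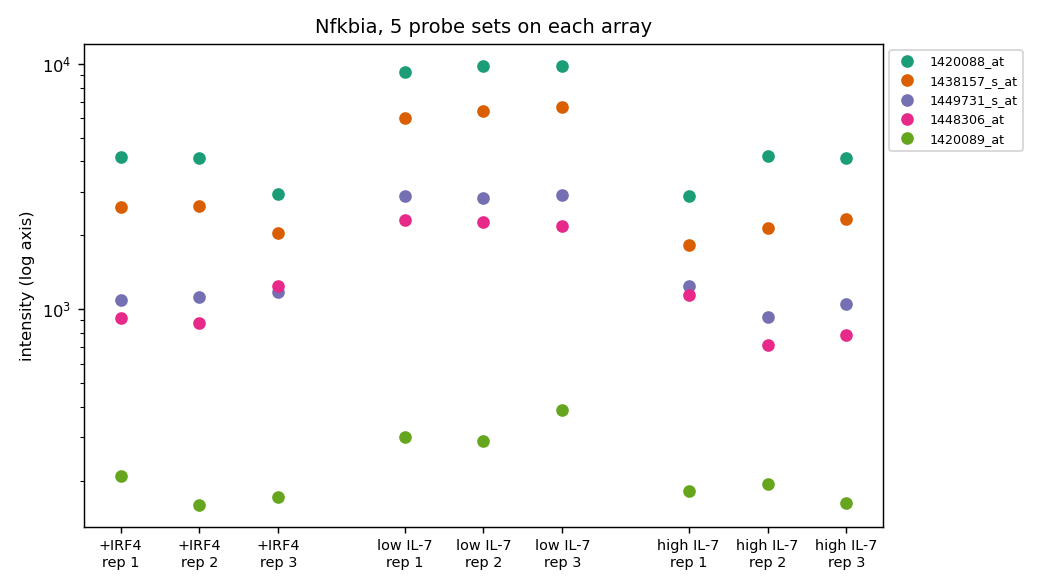
Intensity (log axis) of the 5 Nfkbia probe sets on each of the 9 arrays, 1 colour per probe set. All 5 stand higher on the low IL-7 arrays, and in +IRF4 replicate 3 and high IL-7 replicate 1 the 2 brightest dip while 1448306_at climbs.

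Nfkbie encodes IkBepsilon, an inhibitor best known for holding dimers that contain RelA or c-Rel. Its brighter probe set, 1458299_s_at, read 404, 400.2 and 346 with IRF4, 559.7, 499 and 533 in low IL-7 and 272, 252 and 250.4 in high IL-7. The 3 groups did not overlap, with the +IRF4 arrays between the others. Nfkbie rose by 0.995 in low IL-7 (SE 0.09, 1.99-fold, limma adjusted p = 1.73e-05) and by 0.54 with IRF4 (SE 0.09, 1.46-fold, limma adjusted p = 0.0126). The rise with IRF4 was smaller than that in low IL-7 by a difference of -0.45 (SE 0.09, limma adjusted p = 0.00299). The call of the rise with IRF4 against high IL-7 was lost without +IRF4 replicate 2 or without high IL-7 replicate 3, with a limma adjusted p of up to 0.0645. The second Nfkbie probe set, 1431843_a_at, read 339, 364 and 428 with IRF4, 528, 422 and 403 in low IL-7 and 304, 225 and 240.1 in high IL-7. It rose by 0.78 in low IL-7 (limma adjusted p = 0.00145), and its difference of 0.53 with IRF4 did not pass (limma adjusted p = 0.0821), although the arrays did not overlap. Between +IRF4 and low IL-7 its arrays did overlap, with a difference of -0.25 (95% interval -0.56 to 0.07).

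Nfkbib encodes IkBbeta, another IkB, which is degraded and remade more slowly than IkBalpha. It was the 1 gene of the family that fell in low IL-7. Its brighter probe set, 1421266_s_at, read 677, 794 and 949 with IRF4, 505, 456 and 436 in low IL-7 and 939, 634 and 669.6 in high IL-7. The low IL-7 arrays lay below all others, and the +IRF4 and high IL-7 arrays overlapped. Nfkbib changed by -0.65 in low IL-7 (SE 0.16, limma adjusted p = 0.00975) and differed by 0.12 with IRF4 (95% interval -0.24 to 0.47). The highest arrays, +IRF4 replicate 3 and high IL-7 replicate 1, were again those of low 18S signal, and without both of them the fall was -0.47 (limma adjusted p = 0.00832). The dimmer Nfkbib probe set, 1446718_at, did not show the fall: it differed by -0.06 in low IL-7 (95% interval -0.37 to 0.26), with 225 to 243 in low IL-7 and 225 to 265 in high IL-7. The opposite directions of Nfkbib on one side and Nfkbia and Nfkbie on the other thus rest on 1 of the 2 Nfkbib probe sets.

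Tnfaip3 encodes A20, an enzyme that edits ubiquitin chains and shuts off signalling upstream of IKK. Its brighter probe set, 1433699_at, read 269.9, 275 and 232 with IRF4, 585, 431 and 468 in low IL-7 and 236, 229 and 265 in high IL-7. As for Nfkbia, the low IL-7 arrays stood apart and the others overlapped. Tnfaip3 rose by 0.97 in low IL-7 (SE 0.12, 1.96-fold, limma adjusted p = 0.000129), differed by 0.08 with IRF4 (95% interval -0.19 to 0.35) and was lower with IRF4 than in low IL-7 (-0.89, SE 0.12, limma adjusted p = 0.000261). The dimmer Tnfaip3 probe set, 1450829_at, lay at 90.1 to 109 with IRF4, 121 to 134 in low IL-7 and 105 to 117 in high IL-7, close to the filter. It did not pass in low IL-7 (0.17, limma adjusted p = 0.171) and was lower with IRF4 than in low IL-7 (-0.27, limma adjusted p = 0.0378), a call that held in 3 of the 9 fits that each left out 1 array.

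Birc3 encodes cIAP2, a ubiquitin ligase that acts at TNF family receptors and, with its paralog Birc2, in the degradation of the kinase NIK. Its brighter probe set, 1421392_a_at, read 665, 732 and 610.0 with IRF4, 758, 761 and 777 in low IL-7 and 452, 422 and 398 in high IL-7. Both other groups lay wholly above high IL-7, and the +IRF4 arrays lay just below those of low IL-7. Birc3 rose by 0.83 in low IL-7 (SE 0.10, 1.78-fold, limma adjusted p = 7.19e-05) and by 0.64 with IRF4 (SE 0.10, 1.55-fold, limma adjusted p = 0.00594). It was the gene of the family with the largest rise with IRF4, and that call held in all 9 fits that left out 1 array. The difference between +IRF4 and low IL-7 was -0.19 (95% interval -0.41 to 0.02, limma adjusted p = 0.14), so the order of these 2 groups was not established. The dimmer probe set, 1425223_at, lay at 191 to 226 with IRF4, 208 to 230.0 in low IL-7 and 186 to 225 in high IL-7, and passed in no comparison.

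Of the 4 subunit genes measured, Rela and Rel rose in low IL-7 and none passed with IRF4 against high IL-7 by limma's test in the main fit. Rela encodes p65, the subunit with a strong activation domain that dominates the canonical route. Its probe set, 1419536_a_at, read 1898, 1956 and 1877 with IRF4, 2362, 2272 and 2137 in low IL-7 and 1725, 1882 and 1826 in high IL-7, so that the low IL-7 arrays lay above all others. Rela rose by 0.32 in low IL-7 (SE 0.08, 1.24-fold, limma adjusted p = 0.00733), and this call held in all 20 alternative fits. With IRF4 it differed by 0.08 (95% interval -0.09 to 0.24). Between +IRF4 and low IL-7 the difference was -0.24 (limma adjusted p = 0.0289). This call was lost when only the 2 groups compared were fitted. It was also lost without low IL-7 replicate 1 or 2, or without any 1 of the +IRF4 arrays. The limma adjusted p reached 0.0759 over all alternatives.

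Rel encodes c-Rel, a subunit used mainly in lymphocytes. Its probe set, 1420710_at, read 187, 193 and 212 with IRF4, 202, 212 and 212 in low IL-7 and 179, 181 and 169.7 in high IL-7. The low IL-7 arrays lay above those of high IL-7 by a small margin. The +IRF4 arrays also lay wholly above those of high IL-7 and overlapped those of low IL-7. Rel rose by 0.22 in low IL-7 (SE 0.08, 1.17-fold, limma adjusted p = 0.0412), the weakest call of the family. It was lost when the shared replicate numbers were fitted as a block (limma adjusted p = 0.0504), and in 8 of the 9 fits that left out 1 array, all but that without +IRF4 replicate 3, with a limma adjusted p of up to 0.138 over all alternatives. With IRF4 its difference of 0.15 did not pass (95% interval -0.02 to 0.32).

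Nfkb2 encodes p100, which both restrains RelB and is cut to the subunit p52 in the non-canonical route. Its brighter probe set, 1429128_x_at, read 956, 1018 and 1411 with IRF4, 1159.8, 1498 and 1257 in low IL-7 and 982, 1021 and 990.2 in high IL-7. The low IL-7 arrays lay above those of high IL-7, and +IRF4 replicate 3 stood far from the other arrays of its group. The difference in low IL-7 was 0.37 (95% interval 0.05 to 0.70, limma adjusted p = 0.0692), and that with IRF4 was 0.15 (95% interval -0.17 to 0.48). The dimmer probe set, 1425902_a_at, read 193, 185 and 252 with IRF4, 224, 243 and 221 in low IL-7 and 194, 197 and 184 in high IL-7. It differed by 0.24 in low IL-7 (limma adjusted p = 0.117) and by 0.11 with IRF4 (limma adjusted p = 0.706), and by -0.13 between +IRF4 and low IL-7 (limma adjusted p = 0.387). Nfkb2 therefore passed in no comparison at either probe set in the main fit. Without both arrays of low 18S signal, +IRF4 replicate 3 and high IL-7 replicate 1, the differences from high IL-7 with IRF4 were -0.03 and -0.01, of opposite sign to those over all arrays. In that fit both probe sets passed in low IL-7, with differences of 0.36 and 0.25 (limma adjusted p = 0.0371 and 0.0428), and between +IRF4 and low IL-7 (-0.39 and -0.26, limma adjusted p = 0.0276 and 0.0354).

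Relb encodes the partner of p52 in the non-canonical dimer. Its probe set, 1417856_at, read 126, 136 and 162 with IRF4, 126, 133 and 114 in low IL-7 and 135, 106 and 92.4 in high IL-7. The 3 groups overlapped, all near the filter. The differences were 0.15 in low IL-7 (95% interval -0.13 to 0.44) and 0.31 with IRF4 (95% interval 0.03 to 0.60, limma adjusted p = 0.283). The low IL-7 comparison passed in none of the 9 fits that left out 1 array, and its difference was 0.04 without high IL-7 replicate 3 (limma adjusted p = 0.839). Without both arrays of low 18S signal it was 0.28 (limma adjusted p = 0.0466). With array weights, a setting that called more of all probe sets, it was 0.24 (limma adjusted p = 0.0361). In that fit the difference with IRF4 from high IL-7 also passed (limma adjusted p = 0.0168).

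**Figure D3:**
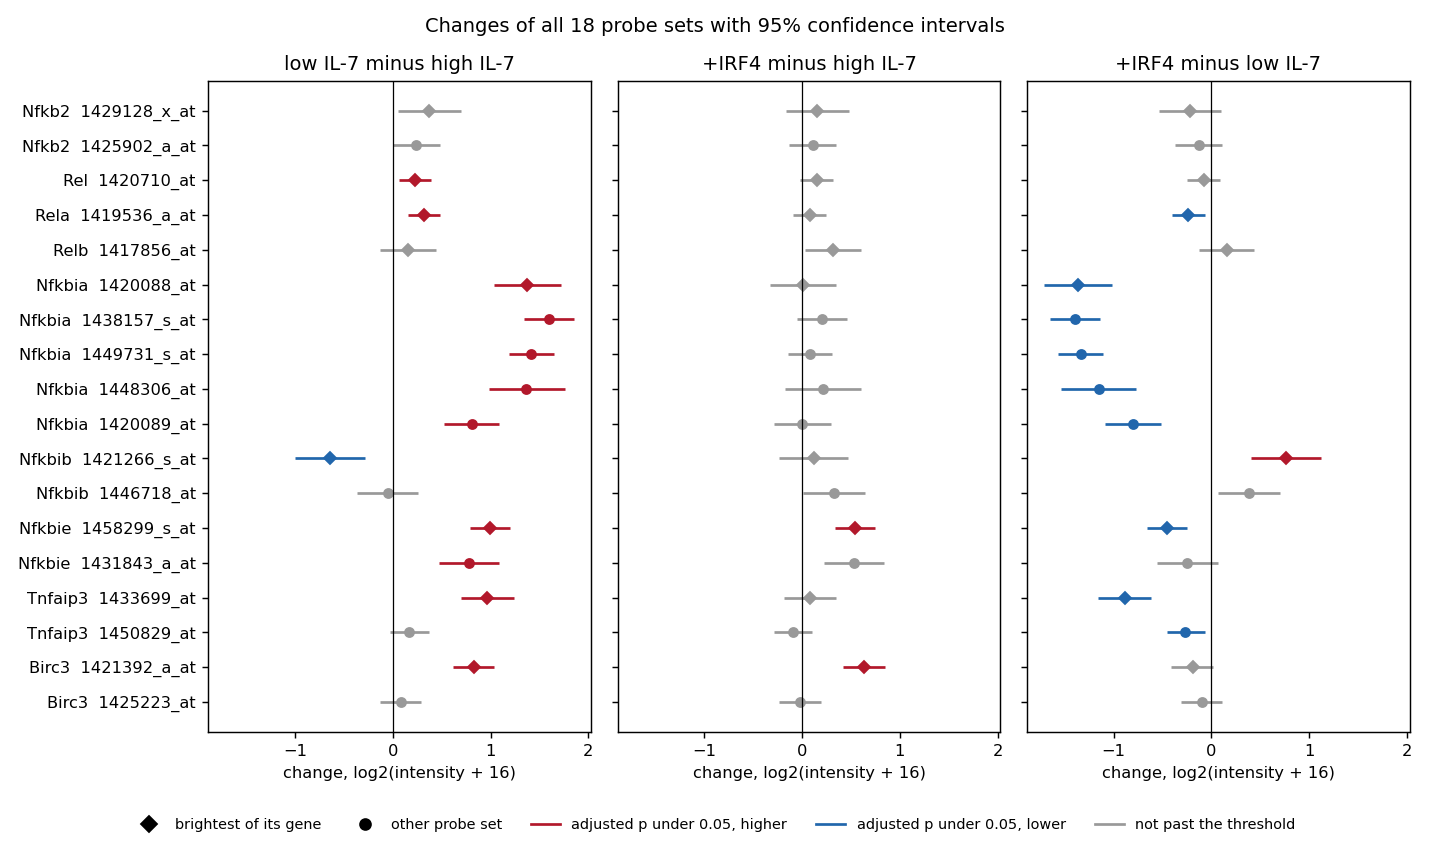
Change of all 18 probe sets in the 3 comparisons on the log2(intensity + 16) scale, with 95% confidence intervals from limma; diamonds are the brightest probe set of each gene, and colours mark an adjusted p under 0.05 and its direction. Nfkbia, Nfkbie, Tnfaip3 and Birc3 rose in low IL-7 by 0.78 to 1.60 at the 9 of their 11 probe sets that passed. The brighter probe sets of Nfkbie and Birc3 were higher in the +IRF4 arrays than in high IL-7.

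The rest of the pathway was read from 6 lists of genes, each gene by its brightest probe set. Their counts stand beside the shares of all genes tested: 17.6% up and 19.4% down in low IL-7, and 1.91% up and 0.935% down with IRF4, both against high IL-7. Of 7 genes tested on the route from the antigen receptor to IKK, 5 rose in low IL-7 and none fell. Blnk, an adaptor, rose by 1.42 (4409 with IRF4, 10400 in low IL-7, against 3879 in high IL-7, as means), Prkcb, a protein kinase C of B cells, by 1.48, Syk, the kinase next to the receptor, by 1.01 and Bcl10, a scaffold, by 0.41. With IRF4, 2 of the 7 rose: Syk by 0.98 (limma adjusted p = 0.00435) and Prkcb by 0.89 (limma adjusted p = 0.000822). Malt1, the protease bound to BCL10, differed by 0.37 with IRF4 (limma adjusted p = 0.131). With IRF4 against low IL-7, 3 of the 7 were lower and 1 higher, where 17.7% and 18.6% of all genes were. Blnk (-1.24, limma adjusted p = 6.3e-07), Prkcb (-0.59) and Bcl10 (-0.29) were lower, and Malt1 was higher (0.63, limma adjusted p = 0.00143).

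Of 11 genes of the IKK complex and its activators, 2 rose in low IL-7, Sharpin, a part of the linear ubiquitin ligase (0.48), and Tab2, an adaptor of the kinase TAK1 (0.42), and Ube2n, an E2 enzyme, fell (-0.61, limma adjusted p = 0.0326), where 36.9% of all genes were called. Rbck1, the partner of Sharpin, differed by -0.52 (limma adjusted p = 0.0555). None of the 11 passed with IRF4 against high IL-7 by limma's test; the differences with the smallest p were those of Tab2 (0.23, limma adjusted p = 0.246), Tab1 (0.19), Traf6 (0.18) and Sharpin (0.09). Of 3 genes of the non-canonical route, Birc2 rose by 0.73 in low IL-7 (limma adjusted p = 0.000612) and was lower with IRF4 than in low IL-7 (-0.68). Traf2 and Map3k14, the gene of NIK, passed in no comparison.

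Of 14 receptors and adaptors, 1 rose and 2 fell in low IL-7 and 1 rose with IRF4. Tnfrsf13c, the receptor for BAFF, averaged 2419 with IRF4, 509.8 in low IL-7, against 926 in high IL-7, so it rose with IRF4 by 1.37 (limma adjusted p = 0.000108) and fell in low IL-7 (-0.84, limma adjusted p = 0.000191). Irak1, a kinase of the Toll-like receptor route, fell in low IL-7 (-0.45) and Tlr9 rose (0.27). Tlr2, Myd88 and Tlr6 differed by 0.24, 0.23 and 0.28 with IRF4, and none of them passed.

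Of 16 other inhibitors and negative regulators, 4 rose and 2 fell in low IL-7, near the shares of all genes. Tax1bp1, which works with A20, rose by 0.62 and Cyld, another deubiquitinase, by 0.39, while Tnip2, which binds A20, and Commd1, which promotes the turnover of RelA, changed by -0.40 and -0.35. With IRF4 against high IL-7 none of the 16 passed by limma. With IRF4 against low IL-7, 6 of the 16 were lower and 2 higher, where 17.7% and 18.6% of all genes were. Otulin, a deubiquitinase of linear chains, was higher with IRF4 than in low IL-7 (0.58, limma adjusted p = 0.00283) and Nfkbiz, an atypical IkB of the nucleus, was lower (-0.66, limma adjusted p = 0.00224).

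Of 17 genes tested that are listed as NF-kappaB targets outside the family, 5 rose in low IL-7 and 5 fell, with a median change of -0.08. Nfkbiz, which rose by 0.39 in low IL-7, and Tnip1, which did not pass, are also among the other inhibitors above and count in both lists. Sod2, a mitochondrial antioxidant enzyme, changed by -1.24 (2016 with IRF4, 1072 in low IL-7, against 2562 in high IL-7, as means), Lta, the cytokine lymphotoxin alpha, by -1.62 (its low IL-7 mean of 64.9 lay below the filter) and Cxcr5, a chemokine receptor, by -0.92. Xiap, a caspase inhibitor, rose by 0.50. With IRF4, Ccr7, the receptor that guides lymphocytes to lymph nodes, rose by 1.47 (limma adjusted p = 0.00015) and Cxcr5 fell (-0.82, limma adjusted p = 0.0183). Of the 30 listed targets, 27 had a probe set and 10 of these lay below the filter, so 17 were tested.

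**Figure D4:**
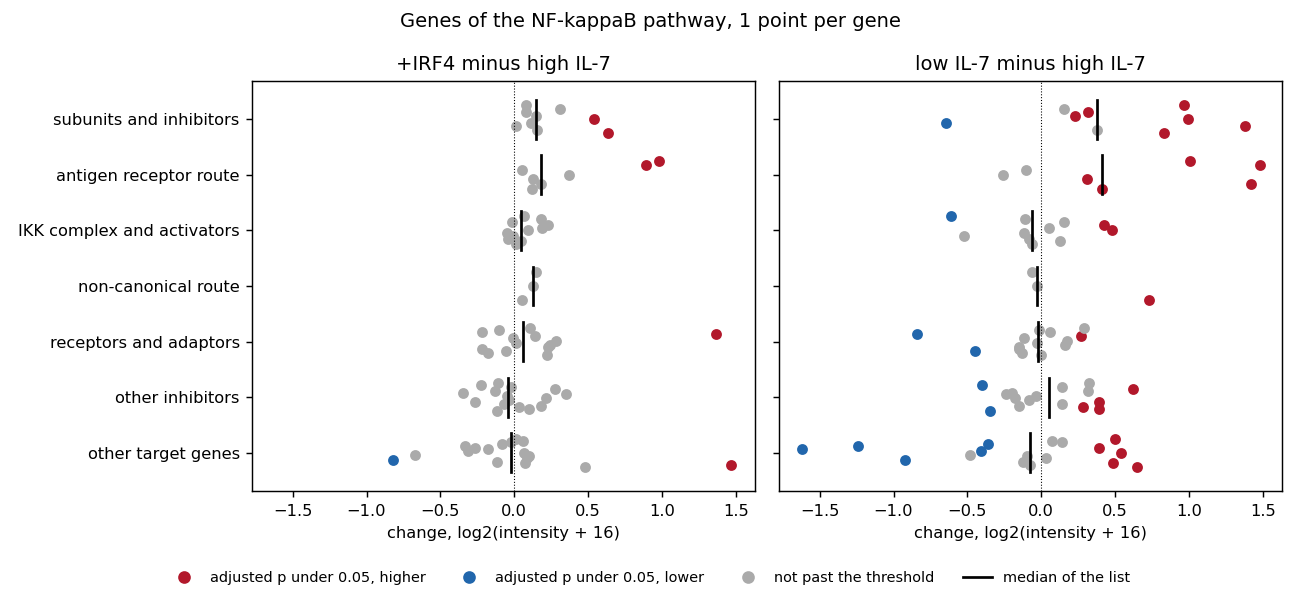
Change of each tested gene of the family and of 6 pathway lists, with IRF4 (left) and in low IL-7 (right), both against high IL-7, on the log2(intensity + 16) scale; points are genes and bars the median of a list. The family's points lie mostly right of 0 in low IL-7, with a median of 0.37, while the other target genes lie on both sides of 0, with a median of -0.08.

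Genes whose pattern over the 9 arrays came closest to a member were found by the root mean square difference of values centred on each gene's own mean. For Nfkbia these were Ctdsp2 (0.09) and Sipa1l2 (0.11), and for Tnfaip3 Eef2k and Git2 (0.08 each). Ctdsp2 rose by 1.39 in low IL-7 and differed by 0.04 with IRF4, so its group means moved nearly as those of Nfkbia did. Birc3 had Pkig (0.09) and Fryl (0.10), Nfkbie had Zfp821 (0.06) and Ero1b (0.08), and Nfkbib had Tarbp2 (0.06) and L3mbtl2 (0.07). Rela had Cdc40 and Rbbp4 (0.03 and 0.04), and Rel had Nat8f1 and Tbc1d22a (0.03 each); members that moved little lie near many genes that moved little.

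The labelled cell type was checked with its markers. For this 6 pre-B markers were measured. Vpreb1 and Igll1, the surrogate light chain, lay at 9508 to 13990 and 9463 to 13930 over the 9 arrays. Cd79a lay at 4228 to 9482, Cd79b at 4199 to 8804, Ebf1 at 3802 to 6273 and Pax5 at 319 to 616. In low IL-7 against high IL-7, 3 of the 6 rose and none fell, where 17.6% of all genes tested rose. Their median change there was 0.36. With IRF4 against low IL-7, 4 were lower and none higher, where 17.7% of all genes were lower. With IRF4 against high IL-7, 1 rose, where 1.91% of all genes did. Their part in the results was not tested. A probe set of Irf4 read 1088 to 2543 with IRF4, 257 to 316 in low IL-7 and 202 to 381 in high IL-7, while the brighter one was lower with IRF4 (3702 to 4256) than in low IL-7 (7161 to 7926) or in high IL-7 (4719 to 5791). The 2 probe sets of Irf8 also gave signal on every array. The brighter read 1966 to 3040 with IRF4, 3581 to 4086 in low IL-7 and 2715 to 3153 in high IL-7. It rose in low IL-7 by 0.43 (limma adjusted p = 0.0353) and was lower with IRF4 than in low IL-7 (-0.72, limma adjusted p = 0.00247). Whether any of these probes fall inside the deleted parts is not known, so they are no check of the deletions. Array medians lay between 139.7 and 151.3.

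Markers of other cells moved beside the members. In bulk RNA fewer cells of a type and less RNA per cell cannot be told apart. Of stromal and fibroblast markers 14 were measured, 12 of them above the filter and none at 0. Their summed intensity was 4344.8 to 23302 with IRF4, 4411.3 to 10071 in low IL-7 and 7808.1 to 33731 in high IL-7. Against high IL-7, 4 of the 12 fell in low IL-7 and none rose, where 19.4% of all genes tested fell. The median change of the 12 there was -1.58. None of the 12 passed with IRF4 against high IL-7 by limma's test, but their median difference was -1.06. Standard errors in that comparison reached 0.94, so a shift of these markers with IRF4 was not excluded. The part of this signal in the results was not tested. The sum of 11 myeloid markers, 7 of them above the filter and none at 0, was 3463.4 to 3979.3 with IRF4, 3038.4 to 3166.7 in low IL-7 and 2286.3 to 2761.5 in high IL-7. Its part in the results was not tested. Most of that sum was Ctss, a protease that B cells also make, at means of 2508 with IRF4, 613 in low IL-7, against 1027 in high IL-7, and Fcer1g, at 148.5 with IRF4, 1218 in low IL-7, against 429.8 in high IL-7, so that these genes moved in opposite ways. Itgam, the integrin chain CD11b, averaged 58.8 with IRF4, 227 in low IL-7, against 43.6 in high IL-7. Only its low IL-7 mean lay above the filter of 108. It was thus tested only through the group in which it was high, and no p-value is given for it. Beside the members that rose in low IL-7, Itgam differed there by 2.01 and Fcer1g rose by 1.49, while Ctss fell (-0.72). Lyz2 lay at 118 to 152, Cd14 at 119.9 to 162, and Mpo, Elane, S100a8 and S100a9 lay below the filter. Sums of T cell markers (8 measured) were 1666.2 to 2160.7 with IRF4, 1877 to 2166.3 in low IL-7 and 1730.2 to 1819.5 in high IL-7. Those of dendritic and natural killer cells (7 measured) were 1450.7 to 1948.2 with IRF4, 1056.7 to 1163 in low IL-7 and 1383.7 to 2056.9 in high IL-7. The largest part of that sum was Bst2, at means of 872 with IRF4, 265 in low IL-7, against 892 in high IL-7. Prf1 moved the other way, at 98.1 with IRF4, 140 in low IL-7, against 105 in high IL-7. Sums of erythroid cell and megakaryocyte markers (5 measured) were 10024 to 10776 with IRF4, 9143.7 to 10327 in low IL-7 and 15086 to 15658 in high IL-7, nearly all of it Car2. None of the measured markers was at 0.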

How the data were processed

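The authors deposited 1 table with a linear intensity for each probe set on each array. Per the labels' protocols, Trizol and a column were used for the RNA, which was biotin-labelled and hybridised to Affymetrix arrays. The method that summarised and scaled the probe sets was not given in the sources used here. Values ran from 0 to 24761.9 and within-group correlations from 0.986 to 0.996; no 2 arrays shared over 2 identical values, so all 9 were counted. No further normalization was added, and their number limits the precision.

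Groups came from the sample titles and gene names from the platform annotation (34958 probe sets with 1 symbol, 932 with several, 9160 with none, besides 64 controls). All 10 member symbols are in the RefSeq gene table of GRCm38.p6, which also gave the promoters. Control probe sets were left out, and probe sets with a mean at or above the 40th percentile were kept. limma 3.58.1 in R 4.3.3 fitted group means over all 9 arrays to log2(intensity + 16), with moderated tests and a variance trend, adjusted over 27024 probe sets. The fit was also run on simulated data with independent errors for each array, which cannot show the effect of deviations that arrays share. Figures used matplotlib 3.10.9 in Python 3.11.15.

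The members and lists were chosen with earlier results of these data known. The text names all member probe sets, up to 4 genes per list and comparison with the smallest p, and the 2 genes nearest in pattern to each called member. Of 148 listed genes, 12 had no probe set of that name. Alternatives changed the pseudocount, filter, trend, normalization, array weights, the arrays fitted, the probe sets tested and the replicate block. The last was checked by correlating deviations from the group means of arrays that share a replicate number. The values were 0.54, 0.35 and 0.19 between low and high IL-7, and -0.35 to 0.01 for pairs with +IRF4. By this measure 4 of the 9 arrays came closest, among arrays of other groups, to one of their own number. High IL-7 replicate 1 and +IRF4 replicate 3, which differ in number, correlated at 0.41. Pairing was thus not established between low and high IL-7 and not seen with +IRF4. The main fit holds no block, and the labels state no pairing.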

Additional observations from a re-analysis of the deposited data

How the results depend on the processing

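The count of 12 called probe sets in low IL-7 against high IL-7 lay between 11 and 15 under the other settings that tested all probe sets or another filter, and between 11 and 14 when 1 array was left out. With 1 probe set per gene it was 7 of 9, and 5 of 9, in place of 10 of 18, with IRF4 against low IL-7; these fits hold fewer probe sets. That last count was otherwise 8 to 13. With IRF4 against high IL-7, the count of 2 became 4 with array weights (the cause was not tested) and 1 to 3 when 1 array was left out: it was 1 without +IRF4 replicate 2 or without high IL-7 replicate 3. With the replicate block the 3 counts were 11, 2 and 10, and among the members the block ended the call of Rel in low IL-7 and changed no other. Over all probe sets, 9827, 747 and 10134 were called in the 3 comparisons. With array weights 15309, 3247 and 15220 were called, and with 1 probe set per gene 4801, 365 and 4666. With IRF4 against high IL-7 the count was 321 when only the 2 groups compared were fitted, 353 to 1047 when 1 array was left out, and 414 without both arrays of low 18S signal. No called change of a member turned round under any setting run. The table gives no detection calls, so what the dim probe sets of Relb and Tnfaip3 can show is limited.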
